A study of Mus musculus with 2 samples.

Results

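Perforin and 7 granzymes (Gzma, Gzmb, Gzmc, Gzmd, Gzme, Gzmf and Gzmk) were followed through the CD45+ leukocytes of B16-F10 tumours, across cell types and between 2 genotypes. The 8 genes were taken by symbol, and all 8 were found among the 32432 genes counted. Their identifiers in the files are ENSMUSG00000023132 for Gzma, ENSMUSG00000015437 for Gzmb, ENSMUSG00000079186 for Gzmc, ENSMUSG00000059256 for Gzmd, ENSMUSG00000022156 for Gzme, ENSMUSG00000015441 for Gzmf, ENSMUSG00000042385 for Gzmk and ENSMUSG00000037202 for Prf1. B16-F10 is a transplantable mouse melanoma line, and 1000 of its cells were placed with Matrigel in the skin of both legs of male mice aged 8 to 12 weeks. One genotype, here Trex1 iKO, was Trex1 fl/fl R26CreERT2-ki/wt, so both Trex1 alleles could be deleted by Cre. The other, here control, was Trex1 wt/fl R26CreERT2-ki/wt and so also carried a floxed Trex1 allele and the Cre, with a wild-type Trex1 allele beside them. R26CreERT2 is a tamoxifen-activated Cre expressed from the broadly active Rosa26 locus, so deletion was not limited to a cell type of the host, and the injected tumour cells did not carry it. Mice of both genotypes were given tamoxifen intraperitoneally, 1 mg daily for 3 days starting on day 5. On day 14 the tumours were dissociated, and live CD45+ cells were enriched on magnetic beads, sorted and sequenced from the 3' ends of their transcripts.

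Killer lymphocytes store perforin and granzymes in secretory granules and release them onto a bound target cell. Perforin forms pores in the target membrane, and granzymes are serine proteases that enter through them and cleave proteins of the target. Granzyme B cuts after aspartate and activates the caspase pathway, granzymes A and K are trypsin-like proteases, and granzymes C, D, E and F belong to a rodent cluster next to granzyme B that activated T cells and NK cells can switch on. Granzyme K is widely used as a marker of effector-memory CD8 T cells, and granzyme B is also made by activated regulatory T cells (Treg).

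Each genotype was 1 pool of 4 hashtagged samples, so genotype and pool are the same split and cannot be told apart in any comparison. The labels do not say that each hashtag is 1 mouse, and p-values therefore measure the spread between hashtagged samples, which may be technical. Kept cells numbered 1304 to 5901 in the iKO samples and 1713 to 2762 in the controls, of 22490 in all, with medians of 13048 to 14677 UMIs (unique transcript counts) per cell in the iKO samples and 6557 to 11931 in the controls. Within a pool no barcode occurred in more than 1 sample, and between pools any pair of samples had at most 6 in common. Trex1 itself had 2 UMIs over all kept cells, both in control sample 2, too few to check the labels. Over all kept cells the UMIs of the 8 genes ran from 5182 for Gzme and 5424 for Gzmd to 78371 for Prf1 and 220718 for Gzmb. Cells were gated on UMIs of marker panels that held none of the 8 genes. The largest gate was monocyte/macrophage with 7271 cells, although the labels call the sorted cells lymphocytes. CD8 T cells (Cd3 or Trac with Cd8a and Cd8b1, no Cd4 and no Foxp3) numbered 4803, CD4 T cells without Foxp3 718, Treg 633, T cells outside these classes ("other T") 1205 and NK cells 193. Foxp3 stood at 237 to 425 CPM (UMIs of the gene per 1000000 UMIs of the gate) in the Treg gate and Ncr1 at 243 to 653 CPM in the NK gate.

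Each gene had its own order of cell types. Levels are CPM of the counts summed over a gate in a sample, and the order follows the mean of log2(CPM + 10) over samples with at least 20 cells. NK cells led for Gzma, Gzmb, Gzmc and Prf1, and CD8 T cells led for Gzmd, Gzme, Gzmf and Gzmk. Neighbours in these orders were compared within samples by an exact sign-flip test, two-sided, adjusted over all 32 neighbouring pairs. None of the 32 passed after adjustment. With 8 samples the test cannot go below an unadjusted p of 0.0078125, and 4 steps that held in 8 of 8 samples were at that value (exact sign-flip test, adjusted p 0.0625). They were Gzma in CD4 T cells over Treg, Gzmb in other T over CD4 T cells, Prf1 in CD8 T over other T cells and Prf1 in Treg over CD4 T cells. Only 3 samples had 20 NK cells, iKO samples 1 and 2 and control sample 3, which held 29, 47 and 62. Steps to or from NK cells rest on these 3, where the smallest p is 0.25, so they could not pass.

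**Figure D1:**
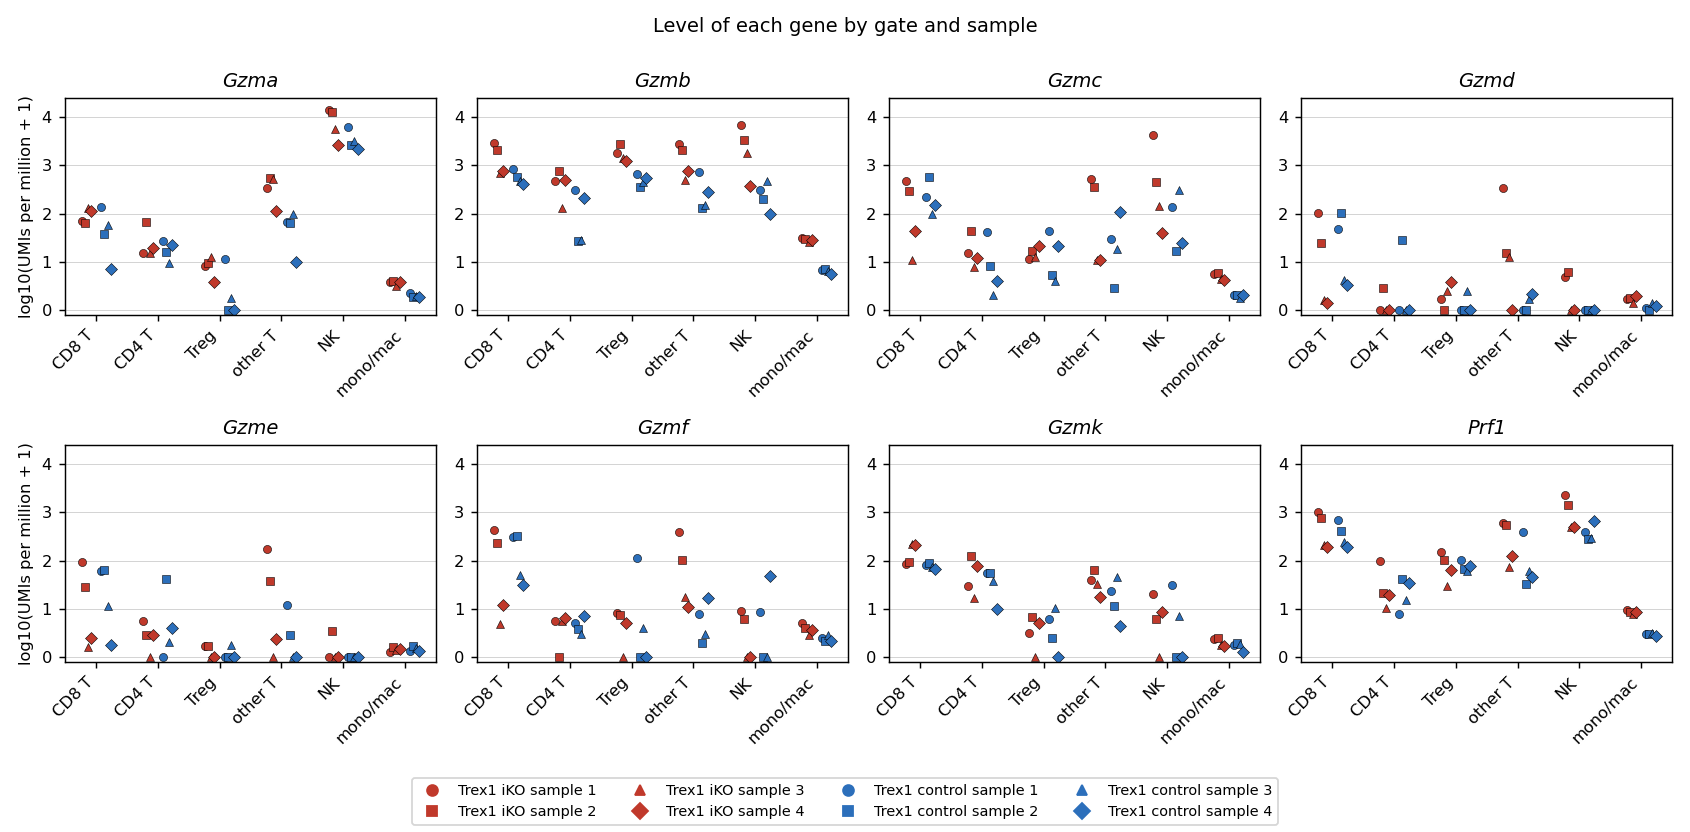
Level of each gene in 6 gates, as log10(CPM + 1), with 1 point per hashtagged sample (red, Trex1 iKO; blue, control; circle, square, triangle and diamond for samples 1 to 4). Gzma is highest in the NK gate, and Gzmb in Treg is higher in all 4 iKO samples (1244 to 2763 CPM) than in any control (355 to 671 CPM).

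Prf1 encodes perforin. In CD8 T cells it stood at 1036, 755, 215 and 192 CPM in iKO samples 1 to 4 and at 688, 420.2, 238 and 192 CPM in control samples 1 to 4. Samples 1 and 2 of each genotype were the higher ones and the genotypes overlapped. NK cells of the 3 samples with 20 cells had 2315 CPM in iKO sample 1, 1435 in iKO sample 2 and 290.1 in control sample 3. Within samples, Prf1 in CD8 T cells exceeded that in other T cells by 1.39 ± 0.97 on the log2 scale (SD, n = 8), in 8 of 8 samples (exact sign-flip test, adjusted p 0.0625). It was lowest in CD4 T cells, where Treg of the same sample were higher by 1.34 ± 0.71 (SD, n = 8), again in 8 of 8 (exact sign-flip test, adjusted p 0.0625). CD8 T cells held 80.5% of the Prf1 UMIs of the iKO pool and 73.1% of those of the control pool.

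Gzmb, the aspartate-cutting granzyme, was found in every T cell gate. CD8 T cells had 2861, 2055, 678 and 757 CPM in the iKO samples and 830.4, 559, 483 and 419 CPM in the controls. All 4 controls lay below iKO samples 1 and 2, while iKO samples 3 and 4 fell below control sample 1. Treg had 1759, 2763, 1412 and 1244 CPM in the iKO samples and 671, 355, 443 and 558 CPM in the controls. The genotypes did not overlap in Treg. Levels in Treg and CD8 T cells of the same sample did not differ beyond their spread (Treg minus CD8 T 0.10 ± 0.64 on the log2 scale, SD, n = 8, higher in 4 of 8, exact sign-flip test, adjusted p 0.733). Other T cells exceeded CD4 T cells by 1.50 ± 0.72 (SD, n = 8) in 8 of 8 samples (exact sign-flip test, adjusted p 0.0625). NK cells led the order over 3 samples, with 6830.1 CPM in iKO sample 1, 3287 in iKO sample 2 and 480.5 in control sample 3. With a minimum of 5 cells, chosen after the gate sizes were seen, all 8 samples entered and CD8 T cells lay above NK cells by 0.32 ± 1.31 (SD, n = 8).

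Gzma, a trypsin-like granzyme, was a gene of the NK gate. NK levels were 14073, 12531, 5631 and 2598 CPM in the iKO samples and 6305, 2679.7, 3225 and 2207 CPM in the controls, although 5 of these 8 profiles held fewer than 20 cells. In the 3 samples with 20 NK cells, NK exceeded other T cells by 4.91 ± 0.43 on the log2 scale (SD, n = 3), in 3 of 3 (exact sign-flip test, adjusted p 0.381). With a minimum of 5 cells the difference was 5.12 ± 1.11 (SD, n = 8), in 8 of 8 samples (exact sign-flip test, adjusted p 0.05). CD8 T cells had 70.1, 64.4, 129 and 115 CPM in the iKO samples and 139, 37.5, 56.7 and 6.34 CPM in the controls, which overlapped. NK cells, 193 of 22490, held 42.3% of the Gzma UMIs of the iKO pool and 48.0% of those of the control pool. Inside the other T gate, the cells with at least 2 UMIs of the NK panel were 26.1% to 43.1% of cells in the iKO samples and held 91.1% to 99.7% of the gate's Gzma UMIs there. In the controls they were 29.7% to 46.9% of cells with 63.6% to 86.5% of the UMIs.

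Gzmk, the gene beside Gzma on chromosome 13, had another order. CD8 T cells had 85.7, 95.1, 222 and 210.1 CPM in the iKO samples and 81.5, 90.3, 75.1 and 66.5 CPM in the controls. iKO samples 3 and 4 were the highest and the other 6 samples lay together. CD4 T cells came next, lower than CD8 T cells by 1.18 ± 1.05 on the log2 scale (SD, n = 8) in 7 of 8 samples (exact sign-flip test, adjusted p 0.1). NK cells ranged from 0 to 30.8 CPM and Treg from 0 to 9.43 CPM over the 8 samples. CD8 T cells held 83.7% of the Gzmk UMIs of the iKO pool and 69.0% of those of the control pool.

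Gzmc, Gzmd, Gzme and Gzmf lie beside each other or nearly so on chromosome 14, where the coding genes run Ctsg, Gzme, Gzmd, Gzmg and, further on, Gzmn, Gzmf, Gzmc, Gzmb and Atp12a. Their promoters are shown because these granzymes were found in the same cells, as described below, with those of Gzmb at the end of the cluster and of Gzmk for contrast. Each is the 250 bases before the start site from RefSeq (GRCm38.p6, minus strand, while the counts were made on GRCm39), at chr14:56262335-56262584 for Gzmb, chr14:56234658-56234907 for Gzmc, chr14:56132594-56132843 for Gzmd, chr14:56120626-56120875 for Gzme, chr14:56211408-56211657 for Gzmf and chr13:113180966-113181215 for Gzmk. The windows of Gzma (chr13:113100982-113101231, minus strand) and Prf1 (chr10:61297586-61297835, plus strand) were searched as well. Capitals mark every match on either strand to TGTGGT, the core bound by RUNX factors, or to TGANTCA, the AP-1 site.
Gzmb: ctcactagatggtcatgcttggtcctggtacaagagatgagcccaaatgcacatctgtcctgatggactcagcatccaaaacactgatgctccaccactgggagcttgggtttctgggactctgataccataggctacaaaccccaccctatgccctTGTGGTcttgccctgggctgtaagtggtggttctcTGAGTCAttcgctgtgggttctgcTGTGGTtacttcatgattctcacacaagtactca
Gzmc: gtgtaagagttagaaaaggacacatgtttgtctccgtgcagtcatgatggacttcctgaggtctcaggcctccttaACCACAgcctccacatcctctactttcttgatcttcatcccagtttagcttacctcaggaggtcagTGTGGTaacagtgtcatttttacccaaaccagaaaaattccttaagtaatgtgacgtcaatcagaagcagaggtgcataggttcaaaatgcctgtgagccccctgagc
Gzmd: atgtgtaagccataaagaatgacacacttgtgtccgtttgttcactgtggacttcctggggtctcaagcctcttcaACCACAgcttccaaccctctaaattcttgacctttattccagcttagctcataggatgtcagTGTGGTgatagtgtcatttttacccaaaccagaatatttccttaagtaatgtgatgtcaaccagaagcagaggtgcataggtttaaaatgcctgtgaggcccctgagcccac
Gzme: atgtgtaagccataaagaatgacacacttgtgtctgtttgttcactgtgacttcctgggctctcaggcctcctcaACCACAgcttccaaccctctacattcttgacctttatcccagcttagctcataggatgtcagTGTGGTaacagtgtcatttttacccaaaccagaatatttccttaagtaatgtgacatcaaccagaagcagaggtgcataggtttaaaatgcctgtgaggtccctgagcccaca
Gzmf: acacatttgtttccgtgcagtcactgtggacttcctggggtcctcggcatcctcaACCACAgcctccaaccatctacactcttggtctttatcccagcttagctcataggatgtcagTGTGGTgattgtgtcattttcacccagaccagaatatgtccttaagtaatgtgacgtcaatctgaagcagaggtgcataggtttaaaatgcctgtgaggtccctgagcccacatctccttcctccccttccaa
Gzmk: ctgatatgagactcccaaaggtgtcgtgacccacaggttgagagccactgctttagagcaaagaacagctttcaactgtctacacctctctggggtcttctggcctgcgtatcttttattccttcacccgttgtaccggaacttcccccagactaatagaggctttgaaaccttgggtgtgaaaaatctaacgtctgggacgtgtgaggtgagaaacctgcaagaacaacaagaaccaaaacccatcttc
The Gzmd and Gzme windows were 94.8% identical, and each was 80.5% to 80.9% identical to that of Gzmc and 74.5% to 74.9% to that of Gzmf. Gzmc and Gzmf were 70.2% identical, and all pairs with a gene outside these 4 had 42.5% to 48.9%. The RUNX letters stood in 7 of the 8 windows, those of Gzmk being without them, against 14.0% of all 32841 promoter windows of this length. In the 4 clustered genes they occurred at a pair of places each, beginning at positions -174 and -108 from the start in Gzmc and -195 and -133 in Gzmf. The AP-1 letters were in the Gzmb window (6.75% of all windows), at position -58. The interferon response element, searched as GAAA, any 2 bases and GAAA, was in the Gzma window (2.98% of all), and TTCNNNGAA, a STAT site, was in none of the 8 (7.02% of all). A match is a description of the letters and was not tested for binding.

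The similarity of these genes also limits their counts. In GENCODE transcripts, 20.6% of the 50-base windows in the last 500 bases of the Gzmd transcript and 18.2% of those of Gzme occurred in another granzyme. For Gzmf it was 7.1%, and for Gzma, Gzmb, Gzmc, Gzmk and Prf1 it was 0. Reads of Gzmd, Gzme and Gzmf could thus be dropped or split, and their values are uncertain.

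In CD8 T cells Gzmc had 477, 295, 10.3 and 43.0 CPM in the iKO samples and 225, 564, 97.2 and 149 CPM in the controls. Gzmf had 437, 236, 3.85 and 11.1 CPM in the iKO samples and 311, 320.2, 49.9 and 30.1 CPM in the controls. Gzmd had 104, 23.7, 0.641 and 0.395 CPM in the iKO samples and 48.0, 101, 3.15 and 2.38 CPM in the controls. For these genes samples 1 and 2 of both genotypes were high and samples 3 and 4 low, so the spread within a genotype covered that between them. Gzme did the same, with 94.7, 28.0, 0.641 and 1.58 CPM in the iKO samples and 59.1, 63.3, 10.8 and 0.792 CPM in the controls. CD8 T cells held 71.8% to 84.8% of the UMIs of each of the 4 genes in the iKO pool and 79.6% to 85.5% in the control pool. In control sample 4, a single CD8 T cell held 86.7% of the Gzmc UMIs, and in control sample 2 a single cell held 53.8%. In the NK gate of iKO sample 1 a single cell held 968 of 1049 Gzmc UMIs.

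The UMIs of the clustered granzymes and of Gzma came from few CD8 T cells. The 10% of CD8 T cells with the most UMIs of a gene held 91.0% to 100% of the Gzmc UMIs of a sample, 97.3% to 100% of the Gzmf UMIs and 94.6% to 100% of the Gzma UMIs. They held 43.4% to 69.9% of the Prf1 UMIs, 42.7% to 91.9% of the Gzmb UMIs and 41.4% to 85.7% of the Gzmk UMIs. A sparse gene fills few cells by counting alone, so the shares describe each gene and do not rank them. In control sample 4 a single CD8 T cell held 59.4% of the Gzmb UMIs.

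To ask which genes were detected in the same CD8 T cells, every cell was thinned to 3000 UMIs, and samples with at least 10 positive cells were used. Among Gzmc-positive cells (536 cells in 4 samples) a median of 96.4% had Gzmb, 84.4% had Prf1 and 41.2% had Gzmf, against 64.8%, 54.4% and 5.84% of Gzmc-negative cells. Gzmk went the other way, in 17.2% of Gzmc-positive and 22.9% of Gzmc-negative cells. Among Gzmd-positive cells (106 cells in 3 samples) 61.5% had Gzme and 76.9% had Gzmf, against 1.80% and 8.75% of the rest. Some of this overlap of Gzmd, Gzme and Gzmf can come from their shared 3' sequence, which was not tested. Gzmb-positive cells (3519 in 8 samples) had Prf1 in 52.1% against 21.8%, higher in 8 of 8 samples. Gzmk-positive cells (1082 in 7 samples) had Gzma in 12.5% against 4.98% and Gzmb in 68.4% against 46.0%, both higher in 7 of 7 samples, while Prf1 was at 36.1% against 35.9%. In Treg, Gzmb-positive cells (400 in 8 samples) and Gzmb-negative cells had Prf1 at the same median of 14.4%, although the positive cells were higher in 6 of 8 samples. Read from the other side, Prf1-positive Treg (102 cells, 4 samples used) had Gzmb in 74.7% against 61.5%, higher in 4 of 4. These are descriptions, since the cells of a sample share its depth and its state.

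The CD8 T gate was split by Tcf7, a transcription factor of stem-like and memory T cells, and Havcr2, which encodes the inhibitory receptor TIM-3 of terminally differentiated cells. Gzmb, Gzmc, Gzme, Gzmf and Prf1 were higher in Havcr2+ Tcf7- cells than in Tcf7+ Havcr2- cells of the same sample, and the tests for Gzma, Gzmd and Gzmk did not pass. Prf1 differed by 3.06 ± 0.50 on the log2(CPM + 10) scale (SD, n = 8), with means of 630.1 and 63.1 CPM, in 8 of 8 samples (exact sign-flip test, two-sided, adjusted over 16 comparisons, p 0.03125). Gzmb differed by 2.85 ± 0.89 in 8 of 8 samples (SD, n = 8; means 1369 and 212 CPM; exact sign-flip test, adjusted p 0.03125). Gzmc differed by 4.06 ± 1.60 in 8 of 8 samples (SD, n = 8; means 352 and 4.86 CPM; exact sign-flip test, adjusted p 0.03125). The differences of Gzmf (3.48 ± 2.03) and Gzme (1.78 ± 1.47) held in 7 of 8 samples each (SD, n = 8; exact sign-flip test, adjusted p 0.0357). Gzmd differed by 1.53 ± 1.82 in 5 of 8 samples (SD, n = 8; exact sign-flip test, adjusted p 0.1).

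Gzmk had means of 118 CPM in Havcr2+ cells and 81.3 CPM in Tcf7+ cells, a difference of 0.37 ± 0.80 in 5 of 8 samples (SD, n = 8; exact sign-flip test, adjusted p 0.307). For Gzma the difference was -0.81 ± 1.97, positive in 3 of 8 samples (SD, n = 8; exact sign-flip test, adjusted p 0.385). Cycling CD8 T cells (Mki67 or Top2a) had more Gzmc than cells that were not cycling (1.81 ± 1.68, 8 of 8), more Gzmb (0.86 ± 0.98, 7 of 8) and more Prf1 (0.75 ± 0.63, 7 of 8; SD, n = 8; exact sign-flip test, adjusted p 0.03125, 0.0357 and 0.0469). The other 5 genes did not pass, Gzma with -0.97 ± 1.13 (SD, n = 8; exact sign-flip test, adjusted p 0.1). The subset comparisons were not run on other genes, so no share over all genes stands beside the count that passed. Of the 16 subset comparisons 8 passed, but the design is at its limit. None passed when any single sample other than iKO sample 1 or 3 was left out, which leaves 7 samples, and 6 passed without either of those.

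**Figure D2:**
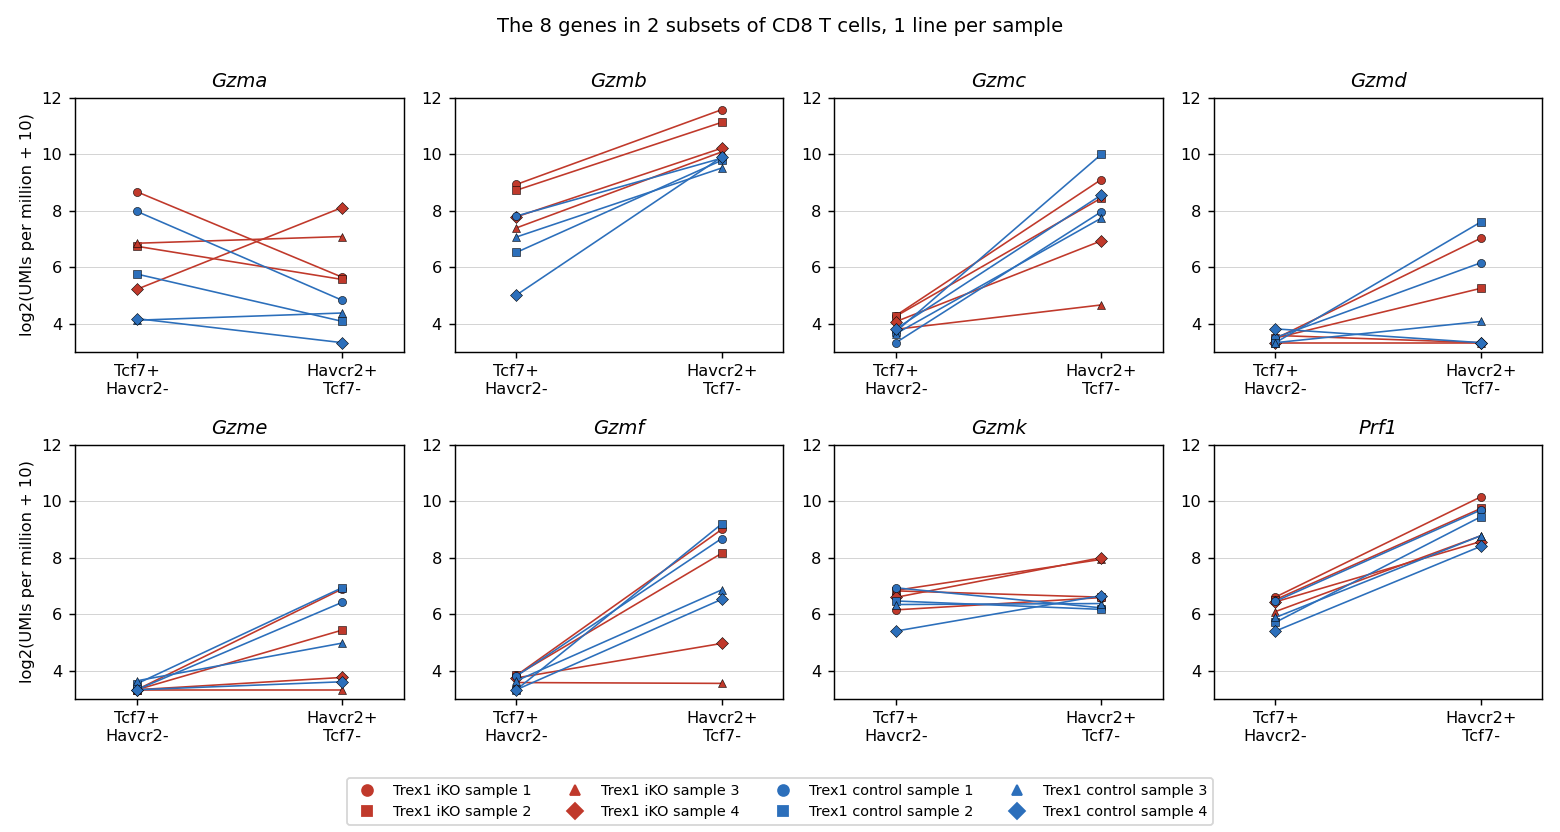
Level of each gene in Tcf7+ Havcr2- and Havcr2+ Tcf7- CD8 T cells, as log2(CPM + 10), with 1 line per hashtagged sample (red, Trex1 iKO; blue, control). All 8 lines rise for Gzmb, Gzmc and Prf1, while 5 of 8 rise for Gzmk and 3 of 8 for Gzma.

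The share of Havcr2+ Tcf7- cells in the CD8 T gate itself followed samples more than genotypes. It was 79.9%, 75.0%, 22.1% and 20.5% in the iKO samples and 57.8%, 39.6%, 29.8% and 21.4% in the controls (exact permutation test, two-sided, p 0.543). The samples with the most Havcr2+ cells, numbers 1 and 2 of each genotype, were also those with high Prf1, Gzmc, Gzmd, Gzme and Gzmf in the whole CD8 T gate. The part of this make-up in the gate-wide levels was not tested beyond the values within subsets.

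Between genotypes, 0 of the 8 genes passed in the CD8 T gate as a whole (edgeR, adjusted over 9374 genes at 0.05), where 3.54% of all genes tested did. Gzmb came closest, with log2 fold change 1.50 ± 0.43, SE, edgeR adjusted p 0.0992 (unadjusted p 0.00579). Gzmk had 0.94 ± 0.30 (edgeR adjusted p 0.131), with an unadjusted p of 0.00983, and the other 6 genes had unadjusted p-values over 0.05. Of all 9374 genes, 1665 had an unadjusted edgeR p under 0.05. DESeq2 called 1 of the 8, Gzmk (0.96, DESeq2 adjusted p 0.0252), and over all 9374 genes it called 274 higher and 184 lower. Prf1 had 0.55 ± 0.55 (edgeR adjusted p 0.654) and Gzma 0.54 ± 0.55 (edgeR adjusted p 0.657). The clustered granzymes had values near 0 with wide errors, such as -0.25 ± 0.85 (edgeR adjusted p 0.932) for Gzmc and 0.02 ± 1.05 (edgeR adjusted p 0.999) for Gzmf. Gzmb passed when iKO sample 3 was left out (1.75, edgeR adjusted p 0.0444) and when iKO sample 4 was left out (1.73, edgeR adjusted p 0.0438). Likewise Gzmk passed without iKO sample 1 (1.14, edgeR adjusted p 0.0469).

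**Figure D3:**
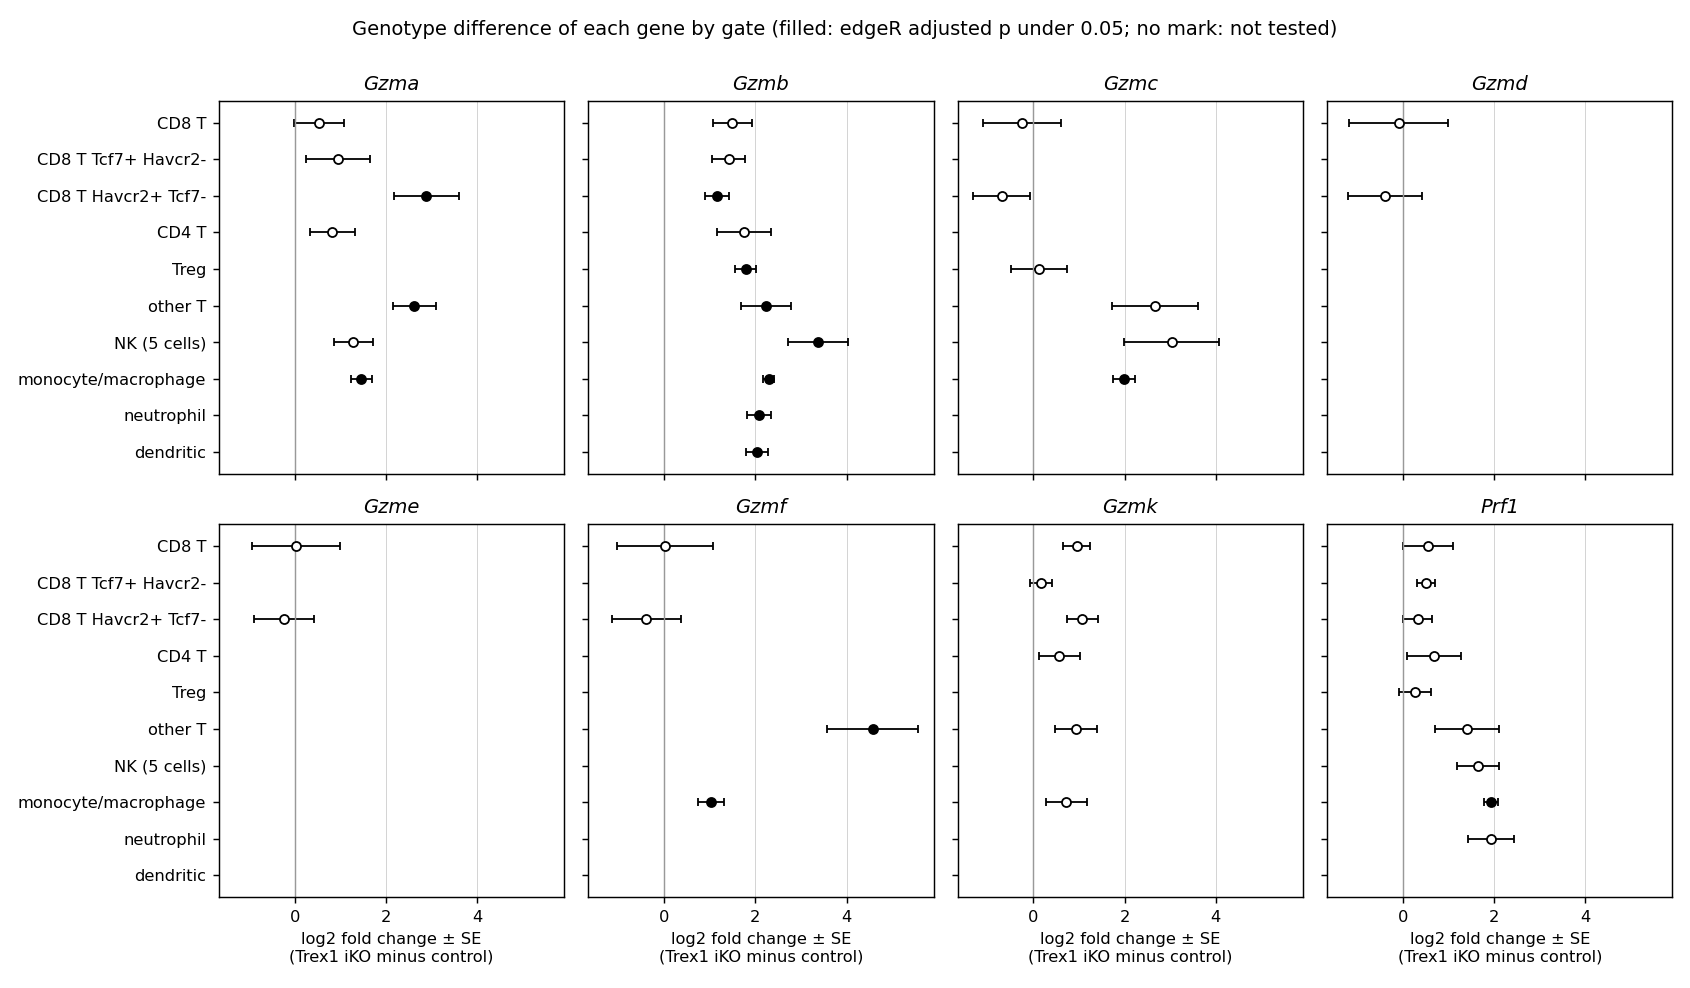
Log2 fold change of each gene, Trex1 iKO over control, with its standard error, in each gate where it was tested (filled, edgeR adjusted p under 0.05; open, not past the threshold; no mark, not tested). Gzmb is filled in Treg at 1.79 and open in CD8 T cells at 1.50.

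Within the Havcr2+ Tcf7- subset, Gzmb and Gzma were higher in the iKO samples, 2 of 8 genes tested, where 5.93% of all genes tested were called. Gzmb had 3038, 2224, 1071 and 1175 CPM in the iKO samples and 916, 869.6, 718 and 943 CPM in the controls. Every iKO sample lay above every control (log2 fold change 1.16 ± 0.27, SE, edgeR adjusted p 0.0212). Gzma had 39.9, 37.2, 125 and 266 CPM in the iKO samples and 18.3, 6.88, 10.7 and 0 CPM in the controls. The groups did not overlap, and iKO samples 3 and 4 were the highest (2.89 ± 0.71, SE, edgeR adjusted p 0.0285). Gzmk had 86.1, 87.1, 236 and 246 CPM in the iKO samples against 64.7, 62.0, 73.1 and 90.8 CPM in the controls and did not pass, with 1.07 ± 0.33 (edgeR adjusted p 0.0788). Prf1 had 0.32 ± 0.33 (edgeR adjusted p 0.649). Both calls were close to the threshold: with DESeq2 Gzmb missed it (adjusted p 0.0518) and Gzma was 3.64, and without cells over 40000 UMIs Gzma missed it (edgeR adjusted p 0.0569). Leaving out single samples also ended them. For Gzmb this was so without iKO sample 1 (0.82, edgeR adjusted p 0.0539), iKO sample 2 (0.0636), control sample 2 (0.0631) or control sample 3 (0.0658), and for Gzma without control sample 2 (0.0942), 3 (0.0724) or 4 (0.0557). Without iKO sample 4 the Gzma difference was 1.89 (edgeR adjusted p 0.0242), and without control sample 1 it was 3.76 (edgeR adjusted p 0.0495). Calls were also gained. Without iKO sample 1, and likewise without iKO sample 2, 2 of the 8 genes were called higher although Gzmb was not, so a gene besides Gzma passed. Over all genes these fits called 104 higher and 67 lower of 7708, and 92 and 61 of 7702.

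In Tcf7+ Havcr2- cells 0 of 4 tested genes passed (1.78% of all genes). Gzmb had 476, 412, 157 and 209 CPM in the iKO samples and 214, 81.6, 124 and 22.2 CPM in the controls. iKO samples 1 and 2 were the highest and control sample 1 lay above iKO samples 3 and 4 (log2 fold change 1.41 ± 0.37, SE, edgeR adjusted p 0.0545). It passed without control sample 1 (1.91, edgeR adjusted p 0.006), iKO sample 3 (1.61, edgeR adjusted p 0.0265) or iKO sample 4 (1.57, edgeR adjusted p 0.0126). In cycling CD8 T cells 0 of 8 genes passed (5.6% of all genes), and in cells that were not cycling 0 of 7 (2.42%). Gzmb had 0.98 ± 0.32 (edgeR adjusted p 0.0996) in the former and 2.09 ± 0.57 (edgeR adjusted p 0.0877) in the latter. At an unadjusted p under 0.05 edgeR gave Gzmb and Gzmk in each of these, and Gzmb and Prf1 in Tcf7+ cells, while DESeq2 called none of the 8 in the 3 subsets. Over all genes, edgeR had 1433 of 7519 under 0.05 unadjusted in cycling cells and 1425 of 8181 in cells not cycling. In Tcf7+ cells it had 951 of 6625.

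In Treg, Gzmb was higher in the iKO samples, with means of 1795 ± 680.0 CPM against 507 ± 137 CPM (SD, n = 4 each) and log2 fold change 1.79 ± 0.24, SE, edgeR adjusted p 0.00242. It was 1 of 3 of the genes that could be tested in Treg, where 2.23% of all genes passed. Its call held under every alternative run, with log2 fold changes from 1.52 to 1.95. Prf1, the pore former, had 151, 103, 29.3 and 64.2 CPM in the iKO samples and 101, 67.1, 61.3 and 76.8 CPM in the controls, which overlapped (0.26 ± 0.35, edgeR adjusted p 0.814). Gzmc had 0.13 ± 0.61 (edgeR adjusted p 0.966), and Gzma and Gzmk were too low in Treg to be tested. Treg had Cd8a at 4.28 to 11.7 CPM in the iKO samples and 0 to 7.74 CPM in the controls, against 478 to 903 CPM in CD8 T cells. Cd8b1 was at 22.4, 18.1, 10.2 and 17.1 CPM in the iKO samples and 2.58, 5.96, 9.43 and 20.0 CPM in the controls (0.95 ± 0.40, edgeR adjusted p 0.287, unadjusted p 0.0330). The gate admits at most 1 UMI of Cd8a and Cd8b1 together per cell, which limits these levels, and their part in the result was not tested. The most Gzmb-rich 10% of Treg held 37.4% to 56.0% of their Gzmb UMIs.

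CD4 T cells without Foxp3 gave 0 calls in 4 genes tested (2.54% of all genes). Gzmb had 479, 779.8, 129 and 486 CPM in the iKO samples and 314, 26.7, 27.4 and 206 CPM in the controls, with iKO sample 3 below control samples 1 and 4 (log2 fold change 1.74 ± 0.59, SE, edgeR adjusted p 0.169, unadjusted p 0.00932, the lowest of the 4). DESeq2 called none of the 4. Without control sample 1, Gzmb passed at 2.72 (edgeR adjusted p 0.0243). Gzmk had 28.9, 122, 16.4 and 75.9 CPM in the iKO samples and 55.4, 54.9, 36.8 and 9.10 CPM in the controls, also overlapping. In the NK gate, fitted with at least 5 cells a sample, 1 of 4 genes passed (0.607% of all genes), Gzmb with log2 fold change 3.37 ± 0.66, SE, edgeR adjusted p 0.0363. NK levels of Gzmb were 6830.1, 3287, 1773 and 370.0 CPM in the iKO samples and 308, 205, 481 and 97.0 CPM in the controls, where iKO sample 4 lay below control sample 3. The NK receptor gene Ncr1, one of the markers of the gate, was at 653, 552, 584 and 509 CPM in the iKO samples and 623, 252, 284 and 243 CPM in the controls. Klrb1c, another NK receptor gene, was at 425, 489, 772 and 308 CPM in the iKO samples and 654, 315, 387 and 121 CPM in the controls. Their part in the result was not tested. The Gzmb call was lost without iKO sample 1 (2.62, edgeR adjusted p 0.0972), without iKO sample 2 (0.0675) and without each of the 4 controls (0.0577 to 0.0998). Without iKO sample 4, which had 14 NK cells, Gzma (1.60, edgeR adjusted p 0.0196) and Prf1 (1.92, edgeR adjusted p 0.029) passed as well. The share of all genes called in that fit is not given here.

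Other T cells gave 3 calls in 6 genes tested, in a gate where 18.8% of all genes passed. Gzma was higher in the iKO samples, at 336, 551, 523 and 113 CPM, than in the controls, at 66.2, 62.9, 97.6 and 9.03 CPM, without overlap (log2 fold change 2.63 ± 0.47, SE, edgeR adjusted p 0.00301). In iKO samples 3 and 4 a single cell held 76.9% and 84.8% of these UMIs. Gzmb had 2731, 2086, 491 and 747 CPM in the iKO samples and 716, 131, 148 and 286 CPM in the controls (log2 fold change 2.23 ± 0.55, SE, edgeR adjusted p 0.0135). Gzmf had 390.3, 101, 17.1 and 10.00 CPM in the iKO samples and 6.85, 0.953, 2.08 and 15.8 CPM in the controls (log2 fold change 4.57 ± 0.99, SE, edgeR adjusted p 0.00751), and a single cell of iKO sample 1 held 53.2% of the UMIs there. The make-up of the gate differed between samples. Cells with Cd8a and Cd8b1 beside Cd4 or Foxp3 were 47.6, 45.8, 20.3 and 17.4% of it in the iKO samples and 17.5, 9.20, 10.8 and 3.91% in the controls. iKO sample 4 lay just below control sample 1, and the share was not tested between genotypes. These cells held 58.3% to 88.4% of the gate's Gzmb UMIs in the iKO samples and 34.8% to 82.9% in the controls. Their part in the result was not tested. The call of Gzmf ended under stricter gates (1.31, edgeR adjusted p 0.279), and it was 6.05 without cells over 40000 UMIs, 3.15 without iKO sample 1 and 5.33 without control sample 4. That of Gzmb ended without control sample 2 (1.97, edgeR adjusted p 0.0538) and was 2.98 without control sample 1. Gzmc, Gzmk and Prf1, at 2.67 ± 0.94 (edgeR adjusted p 0.0604), 0.94 ± 0.45 (edgeR adjusted p 0.164) and 1.40 ± 0.70 (edgeR adjusted p 0.178), did not pass with all samples. They passed when some single samples were left out: Gzmc without iKO sample 3 (3.02) or 4 (3.06) or control sample 4 (3.79), Gzmk without control sample 3 (1.64) and Prf1 without control sample 1 (2.88).

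Whether the genotype difference itself varied between CD8 T cells and CD4 T, Treg, other T or monocyte/macrophage cells was tested for each gene by permuting the genotype labels of the within-sample difference. None of 32 such comparisons passed (exact permutation test, two-sided, adjusted p 0.366 or more). For Gzmb, the effect in CD8 T cells minus that in Treg was -0.54 (exact permutation p 0.286, adjusted 0.762). The call of Gzmb in Treg and its absence in CD8 T cells are thus not shown to be a difference between the gates.

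The share of cells with at least 1 UMI was compared after thinning every cell to 3000 UMIs, because iKO cells were deeper. Gzmb was detected in 77.1, 85.7, 64.4 and 70.2% of Treg in the iKO samples and 58.7, 48.2, 49.1 and 47.8% in the controls. The groups did not overlap (means 74.3% and 51.0%, exact permutation test, two-sided, p 0.0286, the smallest that 4 against 4 can give, adjusted 0.152). Without thinning the ranges were 75.0% to 91.5% and 55.6% to 61.9%. In CD8 T cells Gzmb was detected in 88.0, 83.7, 50.3 and 54.7% in the iKO samples and 50.9, 41.8, 31.1 and 16.1% in the controls. iKO sample 3 fell just below control sample 1 (means 69.2% and 35.0%, exact permutation p 0.0571, adjusted 0.203). B cells, which do not make granzymes as a rule, had Gzmb in 18.6, 18.2, 13.2 and 14.3% of iKO and 2.86, 3.70, 5.90 and 8.70% of control cells at the same depth, a level that free RNA in the droplets can give. Before thinning the medians were 7844 to 18087 UMIs in CD8 T cells and 3588 to 4899 in B cells, and cells under 3000 UMIs were left out (34 iKO and 15 control CD8 T, 7 and 28 Treg, 11 and 99 B).

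Gzmk was detected in 21.6, 22.5, 39.9 and 36.4% of iKO and 20.0, 22.4, 18.1 and 8.04% of control CD8 T cells (means 30.1% and 17.1%, exact permutation p 0.0571, adjusted 0.203). iKO samples 3 and 4 were the highest, and control sample 2 lay above iKO sample 1. Its share in Treg, 0.439% on average in the iKO samples and 2.00% in the controls, stood beside 0.758% and 0.655% in B cells. By sample it was 0, 0, 0 and 1.75% in the iKO samples and 4.35, 1.79, 1.85 and 0% in the controls, from a total of 6 positive Treg. Prf1 was detected in 72.9, 62.2, 24.5 and 28.4% of iKO and 51.9, 33.3, 28.5 and 21.4% of control CD8 T cells (means 47.0% and 33.8%, exact permutation p 0.343), beside 4.61% and 2.41% of B cells. In Treg, Prf1 averaged 17.0% and 14.7%. A CD8 T cell had a mean of 1.73 ± 0.48 of the 8 genes detected in the iKO samples and 1.05 ± 0.43 in the controls (SD, n = 4 each; exact permutation test, two-sided, p 0.114).

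**Figure D4:**
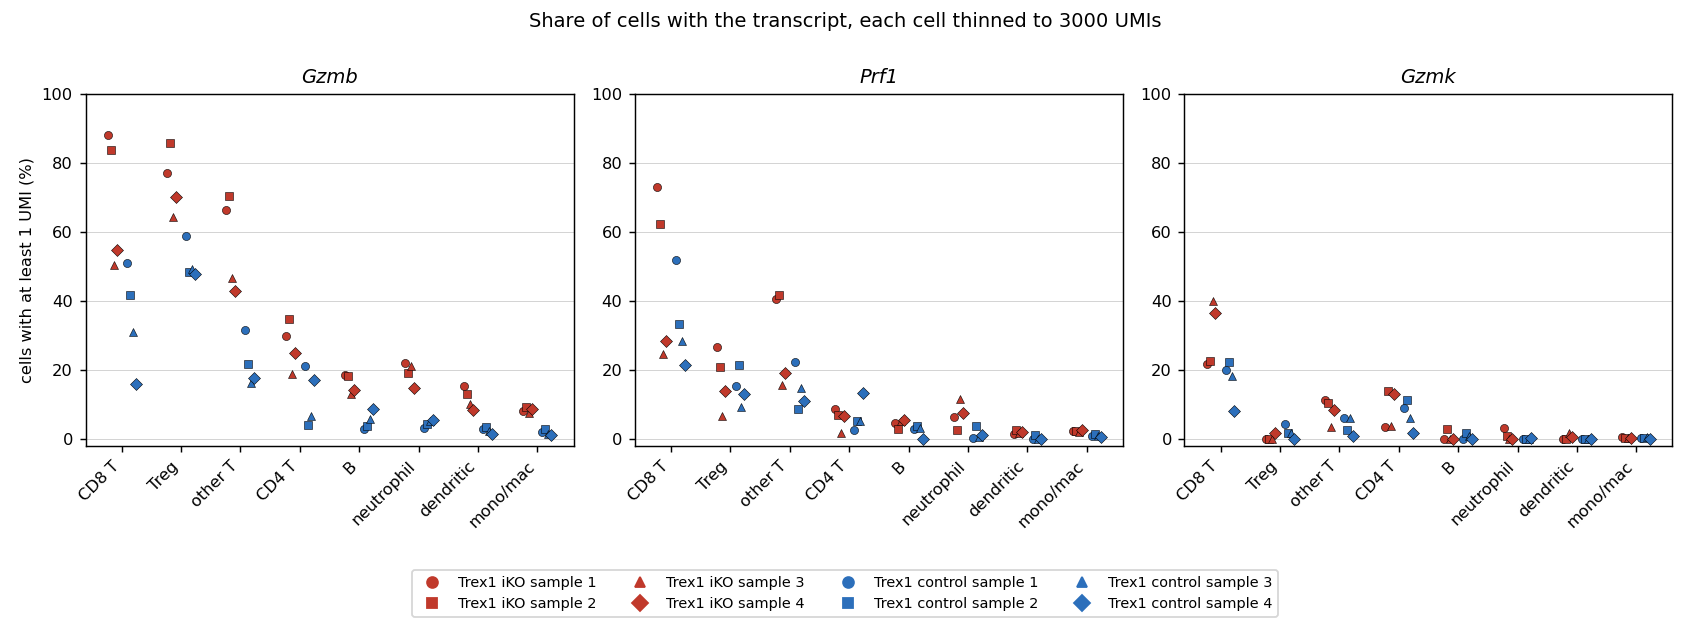
Share of cells with at least 1 UMI of Gzmb, Prf1 and Gzmk in 8 gates after thinning to 3000 UMIs per cell, 1 point per hashtagged sample (red, Trex1 iKO; blue, control). For Gzmb in Treg all iKO points (64.4% to 85.7%) lie above all control points (47.8% to 58.7%), and the B gate shows the level free RNA can give.

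Granzyme UMIs were also present in myeloid gates, at low levels that differed by genotype. In the monocyte/macrophage gate Gzmb stood at 29.8, 28.5, 24.6 and 27.8 CPM in the iKO samples and 5.83, 6.04, 5.62 and 4.71 CPM in the controls, without overlap. There 5 of 6 genes tested were called, where 11.4% of all genes were: Gzmb at 2.30 ± 0.12 (edgeR adjusted p 3.71e-05), Prf1 at 1.94 ± 0.15 (edgeR adjusted p 0.000462), Gzmc at 1.98 ± 0.25 (edgeR adjusted p 0.00422), Gzma at 1.46 ± 0.22 (edgeR adjusted p 0.0074) and Gzmf at 1.03 ± 0.28 (edgeR adjusted p 0.0464). The call of Gzmf was lost without any one of iKO samples 1, 2 and 4 or of the 4 controls (0.81 to 1.15). It also ended with stricter gates (1.10, edgeR adjusted p 0.0604) and without cells whose highest hashtag held under 80% (1.01, edgeR adjusted p 0.0511). Gzmb was called in neutrophils (2.09 ± 0.26, edgeR adjusted p 0.000863, 1 of 2 genes tested, 2.18% of all genes) and in dendritic cells (2.03 ± 0.24, edgeR adjusted p 0.000783, 1 of 1, 3.11%). The dendritic call ended when mixed cells were assigned to a gate (0.72, edgeR adjusted p 0.57), and Gzma in the monocyte/macrophage gate was then 2.70. Prf1 in neutrophils (1.94 ± 0.51, edgeR adjusted p 0.0818) passed without control sample 2 (2.56) or iKO sample 2 (2.14). None of the 8 was high enough to be tested in B cells (3.88% of all genes called).

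These levels were set beside the whole pools. Over all kept cells Gzmb stood at 961 CPM in the iKO pool and 135 CPM in the control pool, and the monocyte/macrophage gate held 2.94% and 3.92% of that level. The T cell gene Trbc2, which was not in any gate panel, held 2.85% and 3.12% there, and Nkg7, a granule gene of killer cells, 3.00% and 3.70%. For Gzma, Gzmc, Gzmf, Gzmk and Prf1 the figures were 2.44% to 3.13% in the iKO pool and 2.18% to 4.48% in the control pool. Gzmd stood at 3.42% and 3.54%, from 55 and 9 UMIs in the gate. Gzme stood at 2.31% and 6.79%, from 35 and 18 UMIs. Cd8a (1.84, edgeR adjusted p 0.000785), Cd8b1 (1.47, edgeR adjusted p 0.00955) and Trbc2 (1.00, edgeR adjusted p 0.00636) were likewise higher in the iKO monocyte/macrophage gate. Cd3g, Thy1, Lag3 and Pdcd1 were called higher there too. Other T cell genes were not called: Cd2 (0.22, edgeR adjusted p 0.623), Cd3d (0.50, 0.0808), Cd3e (0.52, 0.0598) and Trac (0.12, 0.66). Nor were Tcf7, Tox, Havcr2 and Mki67. In neutrophils Gzmb reached 6.29% and 11.5% of the pool level and Trbc2 6.07% and 11.1%. Treg by comparison had at least 1244 CPM of Gzmb in the iKO samples. The highest iKO values were 29.8 CPM in the monocyte/macrophage gate, 73.5 CPM in neutrophils and 55.6 CPM in B cells. The part of free RNA in the Treg level was not tested. Counted over all kept cells, 0 of the 8 genes passed between genotypes (2.69% of all genes), Gzmb with 2.32 ± 0.88 (edgeR adjusted p 0.18) being the 1 gene at an unadjusted p under 0.05 (0.0277). Of all 13534 genes tested, 2923 had an unadjusted edgeR p under 0.05. DESeq2 called none of the 8 there either.

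**Figure D5:**
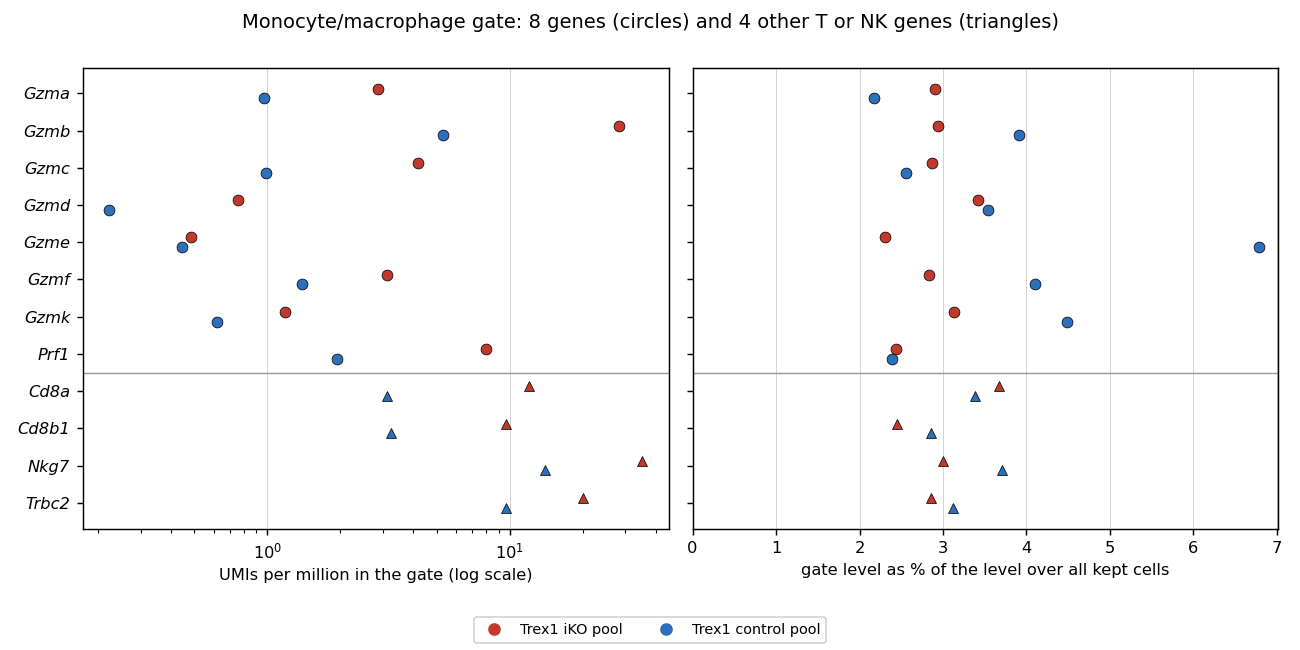
Left, level in the monocyte/macrophage gate in CPM on a log axis; right, the same level as a percent of the level over all kept cells of the pool, for the 8 genes (circles) and for Cd8a, Cd8b1, Nkg7 and Trbc2 (triangles), with the Trex1 iKO pool in red and the control pool in blue. Gzmb is at 2.94% and 3.92% of its pool level, beside 2.85% and 3.12% for Trbc2.

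Lists of genes around the granule pathway were examined in the CD8 T gate, each described by its count of calls and its median log2 fold change, beside the median of -0.01 over all 9374 genes, of which 3.54% were called. Of 8 tested genes of the granule matrix and membrane 1 was called lower, the lysosomal tetraspanin Cd63 (-1.22 ± 0.26, edgeR adjusted p 0.0333), with a list median of 0.01. Leaving out iKO samples 1, 2 or 3, or controls 2, 3 or 4, ended this call (edgeR adjusted p 0.0539 to 0.112). Of 10 genes of granule release 0 passed (median -0.04), with Sytl2 at 0.30 ± 0.20 (edgeR adjusted p 0.471) and Vamp8 at -0.31 ± 0.10 (edgeR adjusted p 0.121). Of 4 genes of granzyme processing 0 passed (median -0.03), with the cathepsin inhibitor Cst7 at 0.16 ± 0.23 and the cathepsin Ctsl at -0.65 ± 0.31. Of 6 serpin and other inhibitor genes 0 passed (median -0.02). Serpinb9b, of the family that inhibits granzymes, had 1.61 ± 0.90 (edgeR adjusted p 0.39) and Serpinb1a -0.41 ± 0.48.

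Of 19 transcription factors of killer and memory T cells 0 passed (median -0.15), with Id3 at -1.47 ± 0.64 (edgeR adjusted p 0.266) and Bach2 at -1.15 ± 0.87. Of 10 receptors for cytokines that induce granzymes 1 was called lower (median -0.02), the interleukin-18 receptor chain Il18r1 (-0.74 ± 0.13, edgeR adjusted p 0.0151; without control sample 2, edgeR adjusted p 0.0508). Of 5 other killing molecules 1 was called higher (median 0.51), Fasl, the ligand that triggers death through Fas (0.78 ± 0.10, edgeR adjusted p 0.00213). Gzmm, the only granule serine protease outside the 8 that could be tested, had -0.67 ± 0.49 (edgeR adjusted p 0.516). Some T cell genes also differed in this gate, with Cd2 at 0.82 (edgeR adjusted p 0.00141), Pdcd1 at 0.81 (0.0175), Cd3g at 0.66 (0.0292) and Cd8b1 at 0.51 (0.0138) higher in the iKO samples. Others did not pass: Cd8a at 0.49 (edgeR adjusted p 0.0992), Trbc2 at 0.50 (0.0662), Cd3d at 0.22 (0.11), Cd3e at 0.18 (0.406) and Trac at 0.39 (0.185). Thy1, Tox, Lag3, Havcr2, Mki67 and Tcf7 (-0.65, edgeR adjusted p 0.726) did not pass either.

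Genes with the most similar pattern were sought over the 35 sample-by-gate profiles of the T and NK gates, among 7676 genes, by Pearson r of log2(CPM + 10). The profiles of a sample share its library and its depth, so r is a description. Gzma was most like Ncr1 (0.91), Klra3 (0.89) and Cd244a (0.87), which encode NK cell receptors. Ncr1 is a marker of the NK gate, so its height in the NK profiles, from 3 samples, follows from the gating. Prf1 was most like Anxa2 (0.92), Plek (0.92) and Nkg7 (0.91). For Gzmb they were AW112010 (0.87), Capzb (0.86) and Pfn1 (0.85), the last 2 of the actin machinery, and for Gzmc they were Serpinb9b (0.87), Setbp1 (0.86) and Plek (0.85). Gzmk stood nearest to Rpl13a (0.77), Thy1 (0.77) and Jaml (0.73). The leading genes were Ybx3 (0.68), Ptpn6 (0.66) and Stk39 (0.64) for Gzmd, Ptpn6 (0.73), Ybx3 (0.72) and Cox17 (0.72) for Gzme, and Ptpn6 (0.83), Srgap3 (0.77) and Tmem163 (0.77) for Gzmf. Among the 8 genes, r was 0.93 for Gzmd with Gzme, 0.82 for Gzmf with each of these, 0.82 for Gzmc with Prf1 and 0.71 for Gzmb with Prf1. The neighbours Gzma and Gzmk had 0.14, and Gzmb and Gzmk -0.03.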

How the data were processed

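The deposited files hold raw UMI counts per gene and cell barcode, 1 matrix for each hashtagged sample, made by the authors with Cell Ranger 7.1.0 on GRCm39 per the submitters' processing notes. The upstream handling of introns and hashtags is not given in the sources used here. Both the 8 genes and the gene lists were chosen with earlier results of these data known. Of 23731 barcodes, 22490 were kept, those with 300 or more detected genes and no more than 10% of UMIs from mitochondrial genes. The 92 spike-in features and the hashtags were left out.

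Cells were gated on summed UMIs of 10 marker panels (at least 3 UMIs, or 2 for NK cells, which also had at most 1 of the T panel). Cells that passed more than 1 panel, 3551 in all, were left out as mixed. No doublet caller was run, so doublets of 1 cell type remain. Mixed cells were 9.65% to 24.6% of the T panel cells of a sample and held 5.01% to 26.6% of its Gzmb UMIs. CD8 T cells had at least 2 UMIs of Cd8a and Cd8b1 with no Cd4 and no Foxp3, CD4 T cells Cd4 without Foxp3, and Treg Foxp3, the last 2 with at most 1 UMI of Cd8a and Cd8b1. Cycling cells had at least 2 UMIs of Mki67 and Top2a.

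Counts were summed per sample and gate, with at least 20 cells (5 for an added fit of NK cells), and tested with edgeR 4.0.16 in R 4.3.3: TMM, filterByExpr, the quasi-likelihood test and Benjamini-Hochberg adjustment over all genes of the gate at 0.05. The standard error is the log2 fold change divided by the square root of F. Levels between gates and subsets were compared on log2(CPM + 10) within samples by exact sign-flip tests, and genotypes by exact permutation tests over samples (Python 3.11.15, scipy 1.17.1), all two-sided. In counts simulated for the CD8 T comparison on 9374 genes, 200 genes were changed by 2 on the log2 scale, up or down. Of these 94% were recovered, and 6% of the calls were false. Smaller log2 fold changes, as all 8 genes had in the CD8 T gate, were not simulated. Values of the 8 genes were given for the main gates, and not every gene was given in every gate. From each list every gene called in CD8 T cells was named, else the 2 with the largest absolute log2 fold change. The 3 most similar genes per member were those with the highest r among genes with a mean of at least 10 CPM. Alternatives were DESeq2 1.42.0, another normalization, no low-count filter, the sample number as a block, stricter gates, assigning mixed cells, leaving out cells with under 80% of hashtag counts in 1 hashtag or over 40000 UMIs, other pseudocounts and thinning depths, and leaving out each sample. Replicates of a genotype differed by 8.17 to 238 times what sampling alone gives, by a chi-square test over genes. Each sample holds different cells, and differences between cells also raise this value. It therefore cannot tell separate mice from portions of the same cell suspension. Of 69 list genes 3 were not analysed here.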

Additional observations from a re-analysis of the deposited data

Results flagged for a closer look

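Dixon's ratio was used to find a sample far from the other 3 in a group of 4. Its cut-off gives about 1 in 20 for independent, normally distributed values. The groups here held skewed counts and partly shared cells, so the rate by chance is not known for them. Such a sample was found in 10 of the 80 groups examined. In CD4 T cells these were Gzma in iKO sample 2 (67.8 CPM), Prf1 in iKO sample 1 (98.6 CPM), Gzmc in control sample 1 (40.6 CPM) and Gzme in control sample 2 (40.1 CPM, with 88.9% of the UMIs in 1 cell). In other T cells they were Gzmd in iKO sample 1 (336 CPM, with 405 of 546 UMIs in 1 cell) and Prf1 in control sample 1 (384 CPM, with 228 of 505 UMIs in 1 cell). NK cells gave Gzmc in iKO sample 1 (4202 CPM, with 92.3% of the UMIs in 1 cell) and Gzmf in control sample 4 (48.5 CPM, from 2 UMIs in 1 cell). In Treg, Gzmf stood out in control sample 1 (111 CPM, 43 UMIs, all in 1 cell). In Tcf7+ Havcr2- CD8 T cells, Gzma stood out in control sample 1 (242 CPM).

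The genotype effect on Gzme differed between gates before adjustment: the log2 difference, iKO minus control, in CD8 T cells minus that in other T cells was -1.64 (exact permutation test, two-sided, p 0.0286, adjusted 0.366), and it did not pass the adjustment.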

How the results depend on the processing

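The Treg call of Gzmb held under all alternatives run. Over all results, 1139 named-gene values kept direction and side of the threshold, and 201 summary values stayed the same. For summary counts this means equal or within 1.5 times. For the number of genes detected per CD8 T cell it means direction and side of the threshold. Of the named-gene values 46 turned sign, 96 lost and 55 gained a call, and 60 summary counts moved by more than 1.5 times. Where a value changed, the cause was not tested. The number of the 8 genes called in CD8 T cells went from 0 to 1 with DESeq2, with no low-count filter and with the sample number as a replicate block. Over all genes those fits called 274 higher and 184 lower of 9374, 202 and 139 of 18830, and 394 and 300 of 9374. Without a filter the number of the 8 called was 1 in CD4 T, 2 in Treg (Gzmb higher and Gzmf lower), 8 in other T, 3 in neutrophils, 3 in dendritic cells, 2 in Tcf7+, 2 in cycling, 1 in not cycling CD8 T cells, 3 in Havcr2+ CD8 T cells, 1 in B cells and 4 in NK cells (5 cells). Over all genes these fits called 219 higher and 104 lower of 15129 in CD4 T and 239 and 166 of 15454 in Treg. The counts were 1025 and 835 of 16349 in other T, 230 and 104 of 15112 in neutrophils and 400 and 240 of 16273 in dendritic cells. They were 224 and 78 of 15187 in Tcf7+, 352 and 328 of 17852 in cycling and 178 and 110 of 17281 in not cycling cells. In Havcr2+ cells they were 398 and 374 of 18122 and in B cells 97 and 61 of 14406. In NK cells the main fit called 12 of 1976 genes. Counts over all genes are not given here for the other NK fits, so their counts of the 8 have no share beside them. With DESeq2, 2 of the 8 were called in neutrophils (152 genes higher and 25 lower of 5277), 1 in Havcr2+ cells (218 and 144 of 7762) and 2 in NK cells. Leaving out cells over 40000 UMIs gave 5 in other T (730 and 581 of 8093), 1 in Tcf7+ (105 and 69 of 6329) and 1 in Havcr2+ cells (228 and 199 of 7650). Assigning mixed cells to a panel gave 0 in dendritic (124 and 89 of 9279) and 1 in B cells (68 and 29 of 3694). With at least 50 cells, 0 subset differences passed, since fewer samples remained.

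Same-numbered samples correlated at 0.64, 0.00362, 0.26 and 0.37 in CD8 T cells, and 2 of 4 iKO samples correlated best with their own number. Over all kept cells the values were 0.60, 0.33, 0.045 and 0.67, again with 2 of 4. With 4 samples of each genotype this cannot show whether the numbers pair the samples, and the labels do not say. The replicate block gave 1 call in CD8 T (Gzmb, 1.28, edgeR adjusted p 0.00491), 1 in CD4 T, 2 in Tcf7+, 1 in cycling and 1 in not cycling cells, 4 in other T, 3 in Havcr2+ and 4 in monocyte/macrophage cells, where Gzmf was lost (0.96, edgeR adjusted p 0.0762). Over all genes the block called 394 higher and 300 lower of 9374 in CD8 T and 102 and 33 of 5914 in CD4 T. The counts were 121 and 59 of 6625 in Tcf7+, 282 and 218 of 7519 in cycling and 321 and 260 of 8181 in not cycling cells. They were 902 and 737 of 8225 in other T, 221 and 181 of 7762 in Havcr2+ and 664 and 500 of 11444 in monocyte/macrophage cells.

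Leaving out each sample in turn, the calls ranged from 0 to 1 in CD8 T, 0 to 1 in CD4 T, 2 to 6 in other T, 4 to 6 in monocyte/macrophage cells, 1 to 2 in neutrophils, 0 to 3 in Tcf7+, 0 to 2 in Havcr2+, 0 to 1 in cycling, 0 to 2 in not cycling and 0 to 3 in NK cells, and the subset differences that passed from 0 to 6. Calls over all genes moved too, in other T from 405 higher and 262 lower without iKO sample 2 to 1088 and 926 without iKO sample 4. In Tcf7+ cells they went from 19 and 16 without iKO sample 2 to 149 and 77 without control sample 1. The sign of these log2 fold changes turned: in CD8 T cells Gzmc (-1.02 to 0.44), Gzmd (-1.66 to 0.78), Gzme (-1.28 to 0.47) and Gzmf (-0.93 to 0.44), in CD4 T cells Gzma (-0.057 to 1.16) and Prf1 (-0.39 to 1.18), in Treg Gzmc (-0.56 to 1.17) and Prf1 (-0.14 to 0.53), in Tcf7+ cells Gzma (-0.10 to 2.91) and Gzmk (-0.017 to 0.42), and in Havcr2+ cells Gzmc (-1.32 to 0.10), Gzmd (-1.86 to 0.59), Gzme (-1.43 to 0.17), Gzmf (-1.23 to 0.11) and Prf1 (-0.021 to 0.58). So did the Gzmb level of Treg minus CD8 T (-0.033 to 0.22), the cycling differences of Gzmd (-0.0400 to 0.45), Gzme (-0.0073 to 0.45) and Gzmk (-0.22 to 0.0076), and the Gzmc share in CD8 T cells (-0.501 to 4.75 percentage points, iKO minus control).

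Values near 0 also changed sign with the processing. In CD8 T cells Gzmd became 0.0154 without cells over 40000 UMIs and 0.0054 with mixed cells assigned; Gzme became -0.051 with DESeq2, -0.30 with the replicate block and -0.017 with stricter gates; Gzmf became -0.00401 with DESeq2, -0.53 with the block, -0.036 with stricter gates and -0.10 without cells over 40000 UMIs. In Treg, Gzmc became -0.21 with DESeq2 and -0.053 with the block. The Gzmk difference of Havcr2+ and Tcf7+ cells became -0.15 with at least 50 cells, and the cycling difference of Gzmd -0.056 with a pseudocount of 1. Depth limits the NK gate (6 to 62 cells a sample) and the clustered granzymes, whose UMIs sat in few cells.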
